A study of Homo sapiens with 5 samples.

Results

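The genes considered here encode the enzymes, transporters, and regulators that carry glucose to pyruvate and pyruvate onward to lactate or to acetyl-CoA. The group was listed by gene symbol, with earlier results of these data known. It holds 34 genes in 8 roles, set beside the 27328 genes of the count table. The roles are glucose entry and trapping, the upper and the lower steps of glycolysis, the regulators of phosphofructokinase, and lactate formation and transport. Further roles are the mitochondrial pyruvate carriers, the pyruvate dehydrogenase complex, and its kinases. Of the 34 genes, 33 were found in the table, and *ALDOA* was not analysed here. The filter on low counts kept 32, leaving out *ALDOC*.

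The cells were TF-1, a CD34+ human cell line of acute myeloid leukemia (AML) with erythroid traits, carrying Cas9 and GFP from a lentiviral vector. The control group comprised 2 pools, sgCtrl 1 and 2, both made with an sgRNA against *renilla luciferase*, a gene that human cells lack. The knockout group comprised 3 pools, sgMTSS1_1, sgMTSS1_2, and sgMTSS1_3, each made with its own sgRNA against *MTSS1*, which encodes an adaptor between membrane and actin. Each pool combined 4 single-cell clones, so a replicate is a pool, the knockout replicates differ in sgRNA, and no drug treatment is recorded for any pool. P-values thus measure the spread between pools of clones, and in bulk RNA fewer cells of a kind cannot be told apart from less RNA per cell.

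Glycolysis splits glucose into pyruvate and yields ATP and NADH. Its flux is set mainly at glucose uptake, hexokinase, phosphofructokinase, and pyruvate kinase, and most of these steps are served by several isozymes that differ in regulation and in the tissues that use them. Proliferating and leukemic cells typically turn much of their pyruvate into lactate, while pyruvate dehydrogenase, held in check by its kinases, commits the remainder to the mitochondrial citric acid cycle.

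Libraries were made with a 3′ kit, which reads the poly(A) end of each transcript, so counts follow the number of mRNA molecules and not transcript length. Levels are therefore given as CPM, counts scaled to a library of 1e6 counts, after correction by the trimmed mean of M values (TMM), and they may be compared between genes as molecule numbers, except where reads are lost to near-identical copies. Total counts lay between 2849979 and 3408827 in the control and between 5442639 and 8854899 in the knockout pools, so condition and depth cannot be told apart. In a single library, 3 counts correspond to 0.389 to 0.938 CPM. Ribosomal protein genes took 7.77 to 9.13% of the counts in the control and 12.1 to 18% in the knockout pools, mitochondrially encoded genes took 8.63 to 13.9% and 6.71 to 7.44%, and their part in the results below was not tested. All 11 TF-1 marker genes examined were measured and none was called different. All knockout pools lay above both control pools for 4 (36.4%, beside 22.2% of all tested genes) and below both for 2 (18.2%, beside 19.2%). Among the 4 was *CD34*, at 112 to 132 CPM in the control and 168 to 345 CPM in the knockout pools. The 2 were *GATA1*, at 80.8 to 110 CPM in the control and 56.4 to 75.2 CPM in the knockout pools, and *PTPRC*, at 471 to 501 and 363 to 435 CPM. Markers of T cells, epithelial cells, and fibroblasts reached at most 26 counts in any library, and of 3 B cell markers, *CD79A* had 8 to 20 counts in the control and 4 to 5 in the knockout pools. *MTSS1* itself was measured at 204 and 87.9 CPM in the control and 104, 139, and 49.9 CPM in the knockout pools, and the groups overlapped (log2-fold change -0.58, SE 0.47, adjusted p = 0.494, edgeR quasi-likelihood test after Benjamini-Hochberg adjustment). A Cas9 cut need not remove the 3′ end that these libraries count, so this level does not check the labels. The authors report that the knockout was checked at the protein level, by immunoblot of the clones that were pooled.

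Measured mRNA of the pathway was spread over more than 3 orders of magnitude in TF-1 cells, from a high of 1748 CPM for *ENO1* in control pool 1 to under 1 CPM for *ALDOC* in most pools. The sum over the measured members was 5903 and 4904 CPM in the control pools and 5809, 5505, and 6032 CPM in the knockout pools, so the summed level of the pathway overlapped between the groups. In every pool *HK1* exceeded *HK2*, *ENO1* exceeded *ENO2*, *LDHB* exceeded *LDHA*, and *MPC1* exceeded *MPC2*.

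**Figure D1:**
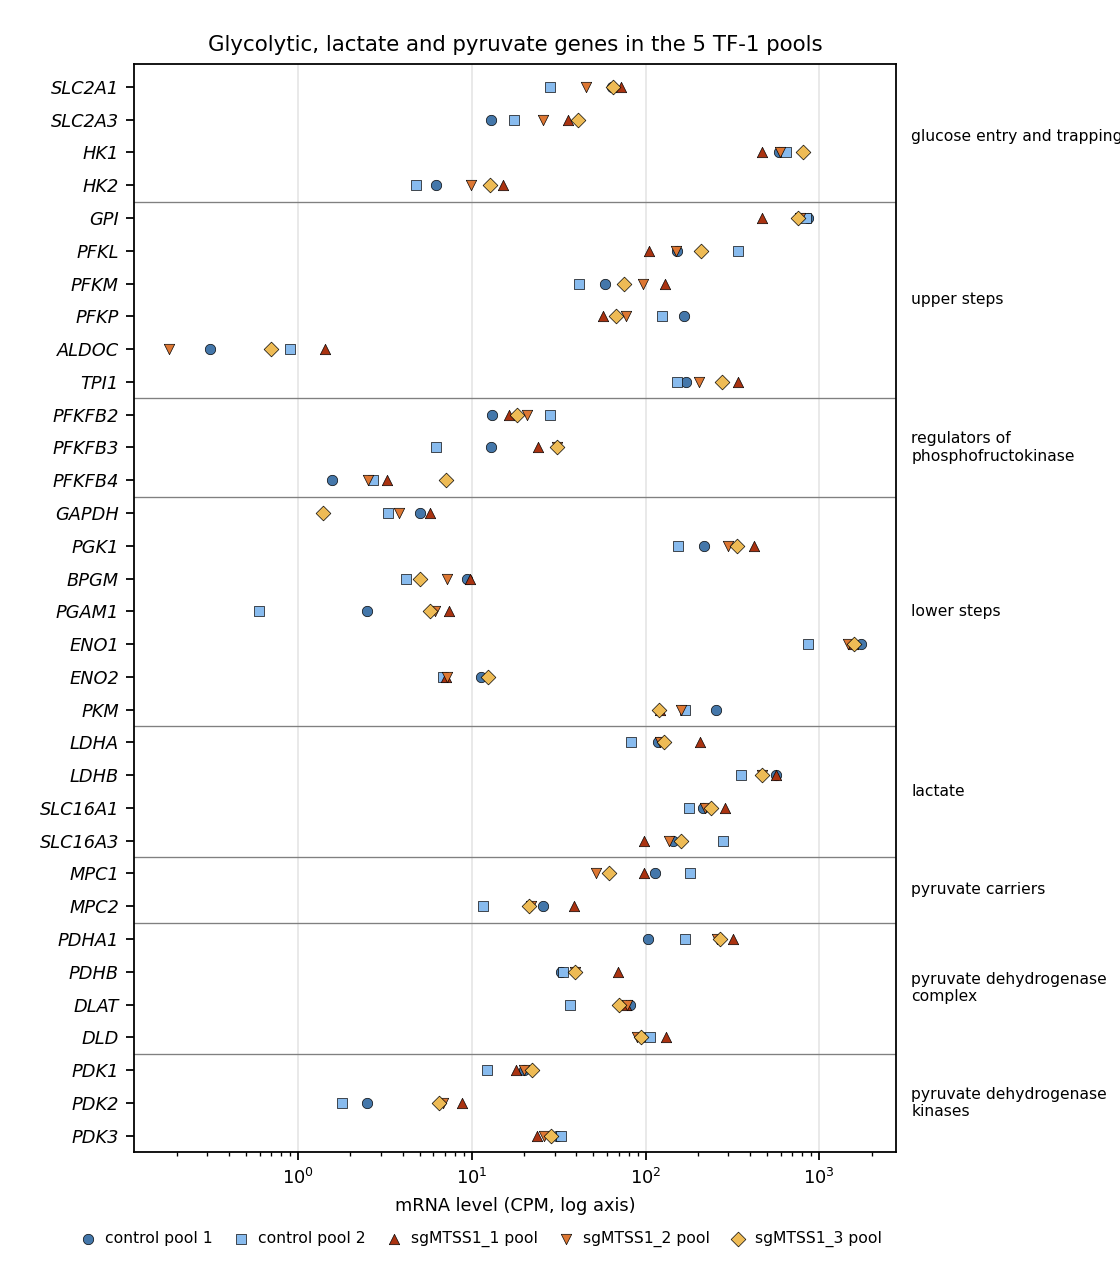
Level of each measured gene in the 5 TF-1 pools, in CPM on a log axis, with 1 point per pool and genes ordered by role. *ENO1* lies highest at 861 to 1748 CPM, *ALDOC* lies lowest, and the knockout pools sit on both sides of the control pools depending on the gene.

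No member passed the call rule, an adjusted p under 0.05 with a log2-fold change above 1 or below -1, in the edgeR quasi-likelihood test after Benjamini-Hochberg adjustment, against 5.18% of all 14391 tested genes (4.17% called higher and 1.01% called lower). At an unadjusted p under 0.05 there were 11 of 32 members, or 34.4%, beside 23.3% of all tested genes. Of these 11, 9 had a positive log2-fold change (28.1% of the members, beside 14.1% of all genes): *SLC2A3*, *HK2*, *PFKM*, *TPI1*, *PFKFB3*, *PGK1*, *PGAM1*, *PDHA1*, and *PDK2*. The other 2, *PFKP* and *MPC1*, had a negative one (6.25% of the members, beside 9.23% of all genes). DESeq2 called 4 members, with *PFKFB3*, *PGAM1*, and *PDHA1* higher and *PFKP* lower, at a background of 7.08% of all genes called higher and 2.35% lower, and limma-voom called 0 at a background of 4.41%.

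The call turned on the setting for a few members near the threshold. With no filter on low counts 4 members were called higher (4.29% of all genes), with a filter at a mean of 5 CPM 1 (5.12%), with the replicate block 1 (6.21%), and without control pool 1 2 (5.93%). Without control pool 2, 1 member was called higher (3.64%) and 1 lower (1.4%), and offsets for GC content and transcript length without the block gave 2 lower (2.65%), while the same offsets with the block gave 0 in either direction. The offsets changed the split of all called genes from 600 higher and 145 lower to 605 higher and 381 lower without the block and to 481 higher and 139 lower with it.

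All 3 knockout pools lay above both control pools for 12 of 32 members (37.5%, beside 22.2% of all tested genes) and below both for 5 (15.6%, beside 19.2%), and the groups overlapped for the other 15. The median log2-fold change of the 32 members was 0.33, beside -0.03 for all tested genes. With library size alone in place of TMM the median of all genes moved by -0.14, and that of the members was 0.17. Measured against the mean of the control pools, the members' median log2 ratio was 0.52 in the sgMTSS1_1 pool, 0.21 in the sgMTSS1_2 pool, and 0.36 in the sgMTSS1_3 pool. The control pools themselves stood at least 2-fold apart for 9 of 32 members, or 28.1%, beside 29.6% of all genes. These 9 were *SLC2A1*, *PFKL*, *PFKFB2*, *PFKFB3*, *BPGM*, *PGAM1*, *ENO1*, *MPC2*, and *DLAT*.

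**Figure D2:**
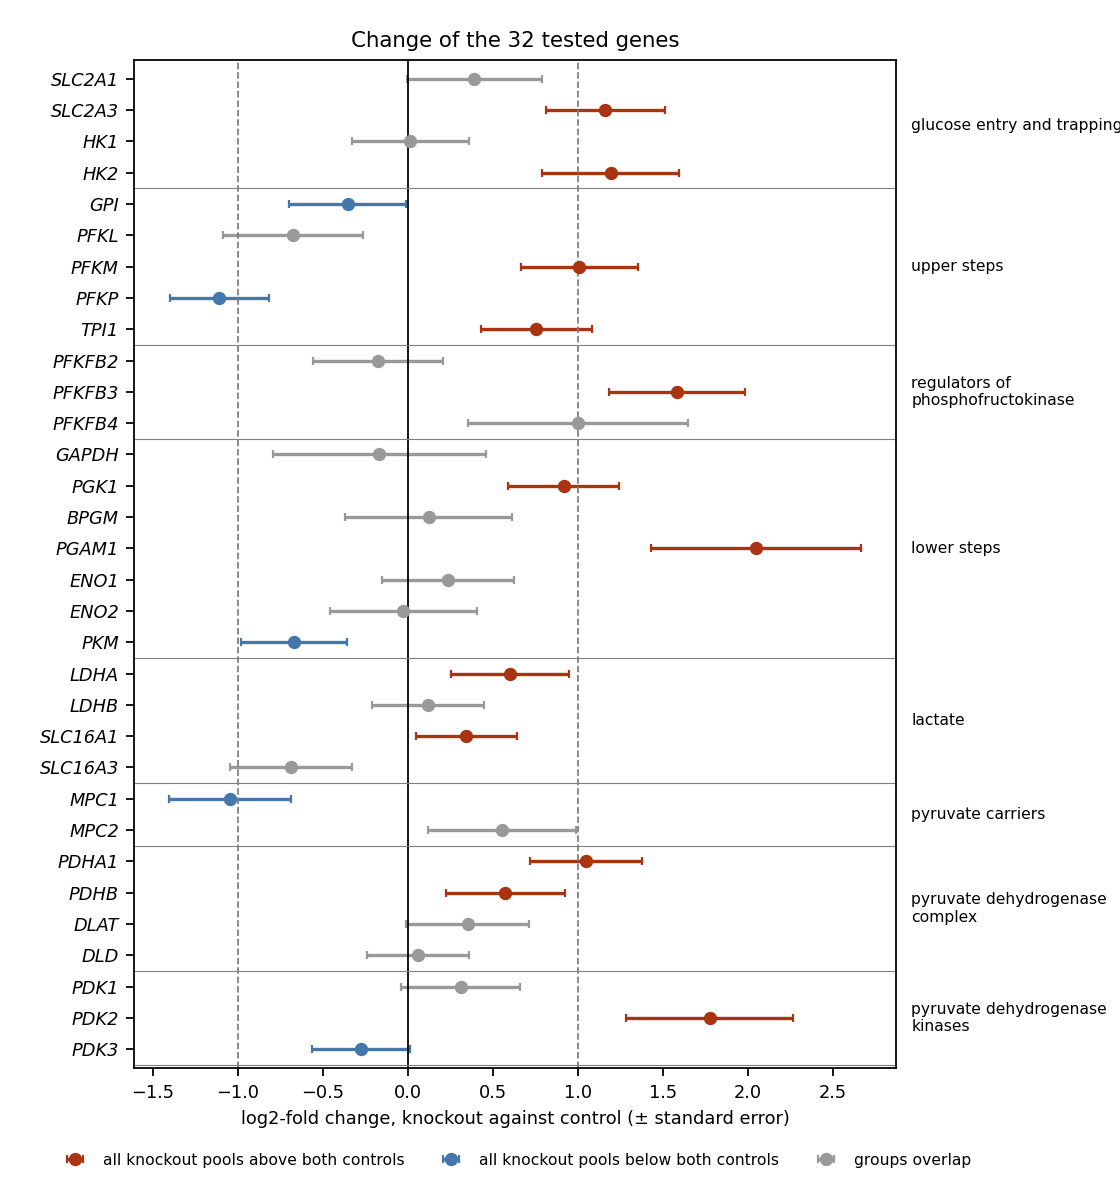
Log2-fold change of the 32 tested genes, knockout against control pools, with bars giving the standard error from edgeR's quasi-likelihood fit and colours showing whether the groups overlap. Values run from -1.11 for *PFKP* to 2.05 for *PGAM1*, and no gene passed the call rule.

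Glucose enters leukemic cells through facilitative carriers and is trapped by phosphorylation, and in the knockout pools the values of the less abundant carrier and hexokinase lay above the control values, while those of the more abundant ones overlapped. *SLC2A3*, encoding the high-affinity glucose carrier GLUT3, was measured at 12.8 and 17.6 CPM in the control pools and at 35.5, 25.8, and 40.9 CPM in the knockout pools. Every knockout pool exceeded both control pools, a 2.24-fold higher mean level whose log2 value was 1.16 (SE 0.35, adjusted p = 0.0866) in the edgeR quasi-likelihood test after Benjamini-Hochberg adjustment. It was called with no filter on low counts (0.0465), and the adjusted p reached 0.270 under the other alternatives. *SLC2A1*, encoding the widespread carrier GLUT1, was at 64.4 and 28.3 CPM in the control and 72.6, 45.1, and 64.5 CPM in the knockout pools. Here the groups overlapped, and the control pools differed more than 2-fold between themselves (log2-fold change 0.39, SE 0.40, adjusted p = 0.600). Without control pool 2 the *SLC2A1* value turned to -0.055, and without control pool 1 it was 1.12.

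*HK1* and *HK2* encode the hexokinases that convert glucose to glucose 6-phosphate. *HK1*, the constitutive form, reached 588 and 645 CPM in the control pools and 467, 591, and 811 CPM in the knockout pools. The log2-fold change of *HK1* was 0.014 (SE 0.34, adjusted p = 0.986), with the groups overlapping. *HK2*, the inducible form, was at 6.25 and 4.77 CPM in the control and 15.2, 9.93, and 12.7 CPM in the knockout pools, all knockout values above both control values, and its log2-fold change was 1.19 (SE 0.40, adjusted p = 0.115). Its share of the counts of both hexokinases was 1.05% and 0.733% in the control pools against 3.15%, 1.65%, and 1.54% in the knockout pools, so *HK1* made up nearly all hexokinase mRNA in every pool.

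At phosphofructokinase, the committed step of glycolysis, the knockout values of *PFKP* lay below and those of *PFKM* above both control values. The enzyme is a tetramer built from liver (*PFKL*), muscle (*PFKM*), and platelet (*PFKP*) subunits. *PFKP* (ENSG00000067057, chromosome 10, 3066333 to 3137718, + strand, GRCh38 by GENCODE 44) was at 166 and 124 CPM in the control pools and 56.9, 76.7, and 67.7 CPM in the knockout pools. All 3 knockout values were below both control values, 2.16-fold lower on average, with a log2-fold change of -1.11 (SE 0.29, adjusted p = 0.0586) in the edgeR quasi-likelihood test after Benjamini-Hochberg adjustment. For *PFKP* the adjusted p ranged from 0.0146 to 0.212 over the alternatives and was under 0.05 with DESeq2 (0.0146), with offsets for GC content and length (0.0323, but 0.101 with the block added), and without control pool 2 (0.0416).

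*PFKM* (ENSG00000152556, chromosome 12, 48105139 to 48146404, + strand) lay on the other side, at 58.5 and 41.4 CPM in the control and 129, 97.1, and 75.3 CPM in the knockout pools. Its groups did not overlap either, and its log2-fold change was 1.01 (SE 0.34, adjusted p = 0.117). *PFKL* (ENSG00000141959, chromosome 21, 44300051 to 44327376, + strand) was at 153 and 340.3 CPM in the control and 105, 150.0, and 209 CPM in the knockout pools. The high value of control pool 2 carried the *PFKL* difference: the log2-fold change was -0.67 (SE 0.41, adjusted p = 0.364) with both control pools, -1.13 without control pool 1, and 0.046 without control pool 2.

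Shares within a set need no scaling between libraries, and they placed *PFKM* at 15.5% and 8.20% of phosphofructokinase counts in the control pools against 44.4%, 30%, and 21.4% in the knockout pools. The 95% Wilson intervals, which cover counting error only, were 13.6 to 17.7% and 6.98 to 9.60% in the control pools, against 42.3 to 46.4%, 27.9 to 32.2%, and 19.7 to 23.3% in the knockout pools, so no knockout interval reached a control interval. The *PFKP* share was 44% and 24.5% in the control pools against 19.6%, 23.7%, and 19.2% in the knockout pools, with the sgMTSS1_2 pool close to control pool 2. The *PFKL* share was 40.5% and 67.3% in the control pools against 36.1%, 46.3%, and 59.3% in the knockout pools and overlapped. *PFKM* was the leading subunit in the sgMTSS1_1 pool, *PFKP* in control pool 1, and *PFKL* in the other 3 pools.

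Promoter windows of the phosphofructokinase genes and of *PFKFB3* are shown because the first encode the subunits of the same enzyme and the last held the lowest p among the members. Each is the 250 bases upstream of a RefSeq transcription start on GRCh38.p14, taken at the listed start nearest the annotated gene start, 5′ to 3′ on the gene's strand, with matches to ACGTG or GCGTG on either strand in capitals, the core of the element bound by hypoxia-inducible factors. The 3′ libraries do not tell which start a transcript used, and 7 starts are listed for *PFKM* and 4 for *PFKP*. The windows are chr21:44299803-44300052 for *PFKL*, chr12:48105103-48105352 for *PFKM*, chr10:3067720-3067969 for *PFKP*, and chr10:6144671-6144920 for *PFKFB3*, all on the + strand.
PFKL: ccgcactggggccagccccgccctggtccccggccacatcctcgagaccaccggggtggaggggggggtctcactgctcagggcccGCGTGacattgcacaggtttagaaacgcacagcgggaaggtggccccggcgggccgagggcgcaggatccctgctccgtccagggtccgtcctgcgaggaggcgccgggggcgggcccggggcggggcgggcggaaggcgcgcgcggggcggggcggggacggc
PFKM: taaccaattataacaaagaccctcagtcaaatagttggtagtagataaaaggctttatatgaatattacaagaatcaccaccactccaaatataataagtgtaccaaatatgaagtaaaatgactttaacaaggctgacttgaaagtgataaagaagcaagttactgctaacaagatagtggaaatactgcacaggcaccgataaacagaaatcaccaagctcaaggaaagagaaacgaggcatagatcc
PFKP: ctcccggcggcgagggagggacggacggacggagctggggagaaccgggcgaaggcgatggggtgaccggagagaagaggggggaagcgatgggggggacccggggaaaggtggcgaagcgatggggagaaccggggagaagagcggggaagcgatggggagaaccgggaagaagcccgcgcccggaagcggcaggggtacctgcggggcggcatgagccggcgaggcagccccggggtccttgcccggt
PFKFB3: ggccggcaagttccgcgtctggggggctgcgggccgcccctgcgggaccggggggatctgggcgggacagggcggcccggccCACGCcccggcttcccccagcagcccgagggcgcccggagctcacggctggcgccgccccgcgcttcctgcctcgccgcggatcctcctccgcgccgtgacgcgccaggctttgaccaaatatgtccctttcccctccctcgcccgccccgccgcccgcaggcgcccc
*PFKL* and *PFKFB3* held 1 match each, and *PFKM* and *PFKP* held 0. Over the members, 18 of the 31 with a promoter entry held at least 1 match, or 58.1%, beside 43.2% of 35116 windows of the same length. The windows of *PFKL* and *PFKFB3* are rich in G and C, at 78% and 79.2%, as is that of *PFKP* at 72.8%, while that of *PFKM* has 35.2%. A match is a description of the letters and not a binding site.

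Aldolase lies between an earlier and a later isomerase step. *GPI*, encoding glucose 6-phosphate isomerase, was at 863 and 839.8 CPM in the control and 467, 775, and 756 CPM in the knockout pools. The sgMTSS1_1 pool was well below the others, and the log2-fold change was -0.35 (SE 0.34, adjusted p = 0.581). *TPI1*, encoding triosephosphate isomerase, was at 172 and 151 CPM in the control and 339, 203, and 277 CPM in the knockout pools, all above both control pools, with a log2-fold change of 0.76 (SE 0.33, adjusted p = 0.200). *ALDOC*, the brain form of aldolase, had 1 and 3 counts in the control libraries, against 11, 1, and 4 in those of the knockout, too few for a test.

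The regulators of phosphofructokinase are bifunctional enzymes that make and break fructose 2,6-bisphosphate, its strongest activator. *PFKFB3* (ENSG00000170525, chromosome 10, 6144934 to 6254644, + strand), whose product has the highest kinase activity of the family, held the lowest p of all members. Its level was 12.8 and 6.26 CPM in the control pools and 24, 31.1, and 30.8 CPM in the knockout pools. The knockout values were all above the control values and close to each other (mean 28.6 ± 4.0 CPM, SD, n = 3), while the control pools stood 2-fold apart (mean 9.54 ± 4.64 CPM, SD, n = 2). This was a 3-fold higher level, with a log2-fold change of 1.58 (SE 0.40, adjusted p = 0.0522) in the edgeR quasi-likelihood test after Benjamini-Hochberg adjustment, which just missed the call rule. Over all alternatives the adjusted p ranged from 0.00785 to 0.137, and *PFKFB3* was called with no filter on low counts (0.0120), with a filter at a mean of 5 CPM (0.0475), with DESeq2 (0.00785), with the replicate block (0.0378), and without control pool 1 (0.0213). The log2-fold change was 2.20 without control pool 1 and 1.18 without control pool 2.

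*PFKFB2*, the heart form, was at 13.1 and 28.3 CPM in the control and 16.3, 20.8, and 18.1 CPM in the knockout pools. The knockout values lay between the control values, and the log2-fold change of -0.17 (SE 0.38, adjusted p = 0.827) took either sign depending on which control pool was left out, from -0.61 to 0.51. *PFKFB4* was scarce, at 1.56 and 2.68 CPM in the control and 3.24, 2.53, and 7.13 CPM in the knockout pools, and its groups overlapped (log2-fold change 1.0, SE 0.65, adjusted p = 0.392). Within the family, *PFKFB3* made up 46.6% and 16.8% of the counts in the control pools against 55.1%, 57.1%, and 55% in the knockout pools. The *PFKFB2* share was 47.7% and 76% in the control pools against 37.5%, 38.2%, and 32.3% in the knockout pools, so *PFKFB3* was the leading form in every knockout pool and in neither control pool, although in control pool 1 it was only 1 count behind. These shares rested on 88 and 125 counts in the control libraries and on 301 to 336 in the knockout libraries, and the Wilson interval of control pool 1, 36.5 to 56.9%, reached into the intervals of the knockout pools.

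The lower steps of glycolysis held the member with the highest measured level, *ENO1*. This order covers measured levels only, as *ALDOA* was not analysed here and near copies make the *GAPDH* level uncertain. *PGK1*, encoding phosphoglycerate kinase, the first ATP-yielding step, was at 218 and 153 CPM in the control pools and 418, 297, and 335 CPM in the knockout pools. All knockout values were above both control values, with a log2-fold change of 0.92 (SE 0.33, adjusted p = 0.132). *ENO1*, encoding the ubiquitous enolase, was at 1748 and 861 CPM in the control and 1568, 1463, and 1580.1 CPM in the knockout pools. The knockout pools lay close together and between the control pools, and the log2-fold change was 0.24 (SE 0.39, adjusted p = 0.763). *ENO2*, the neuronal enolase, was at 11.3 and 6.85 CPM in the control and 7.13, 7.22, and 12.4 CPM in the knockout pools, 0.453 to 0.790% of all enolase counts (log2-fold change -0.026, SE 0.43, adjusted p = 0.980).

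*PKM*, encoding the muscle-type pyruvate kinase that closes the pathway, was at 254 and 169.6 CPM in the control and 120.5, 159, and 119.7 CPM in the knockout pools. All 3 knockout values were below both control values, the sgMTSS1_2 pool only narrowly, and the log2-fold change was -0.67 (SE 0.31, adjusted p = 0.231). The counts join both splice forms of *PKM*, which share their 3′ end. *BPGM*, encoding the enzyme of 2,3-bisphosphoglycerate synthesis in red cells, was at 9.38 and 4.17 CPM in the control and 9.73, 7.22, and 5.05 CPM in the knockout pools, with overlapping groups and a log2-fold change of 0.12 (SE 0.49, adjusted p = 0.909).

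*GAPDH* and *PGAM1*, at steps that all glucose carbon of the pathway must pass, had few counts. *GAPDH*, encoding glyceraldehyde 3-phosphate dehydrogenase, had 16 and 11 counts in the control and 44, 21, and 8 counts in the knockout libraries. This was 5.0 and 3.28 CPM in the control and 5.71, 3.79, and 1.39 CPM in the knockout pools, with overlapping groups and a log2-fold change of -0.17 (SE 0.63, adjusted p = 0.903). *PGAM1*, encoding the main phosphoglycerate mutase, had 8 and 2 counts in the control and 57, 34, and 33 counts in the knockout libraries.

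The authors removed reads that aligned to more than 1 place, so each member's transcript end was compared with the remaining genome. Of the 50-base windows in the last 500 bases of the transcript, 91.6% of those of *GAPDH* and 90.9% of those of *PGAM1* matched another place in GRCh38 at 48 or more of 50 bases. Exact matches made up 25.3% for *GAPDH* and 89.8% for *PGAM1*. The share of near copies was 64.5% for *TPI1*, 51.4% for *LDHB*, 51% for *HK2*, 49.9% for *PGK1*, 45% for *PKM*, 37.5% for *SLC2A3*, 35% for *GPI*, 24.6% for *PDK1*, 22.8% for *ENO1*, 9.09% for *PFKFB3*, and 5.32% for *LDHA*, and 0 for the other 20 measured members. Exact matches lay at 14836 other places for *PGK1* and at 13374 for *GPI*, against 59 for *SLC2A3* and 8 for *PGAM1*. Matches scattered so widely need not be copies of the gene. Any exact window was present in 12 of the 32 tested members, or 37.5%, beside 18.6% of 11078 tested protein-coding genes. The levels of these genes are uncertain for this reason, and the part of lost reads in any value was not tested.

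For *PGAM1* the level was 2.50 and 0.596 CPM in the control pools and 7.39, 6.14, and 5.74 CPM in the knockout pools. All knockout values were above both control values, 4.14-fold on average, but the value of control pool 2 rested on 2 counts, under the floor of 3 counts. Without control pool 1 the log2-fold change was 3.40, and without control pool 2 it was 1.38. The log2-fold change was 2.05 (SE 0.62, adjusted p = 0.0867) in the edgeR quasi-likelihood test after Benjamini-Hochberg adjustment. Its adjusted p ranged from 0.0313 to 0.202 over all alternatives, and the gene was called with no filter on low counts (0.0371), with DESeq2 (0.0471), and without control pool 1 (0.0313).

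The pseudogenes of *GAPDH*, genomic copies without known function, also had counts. Of 65 pseudogenes annotated by the name *GAPDHP*, 18 were in the table and 5 were tested. Summed over them, the level was 10.3 and 3.28 CPM in the control pools and 62.6, 40.1, and 38.3 CPM in the knockout pools, several times that of *GAPDH* itself in every knockout pool. The pseudogene sum was higher in all knockout pools than in both control pools. Chosen after their values were seen, *GAPDHP40* with 8 and 1 control and 172, 76, and 71 knockout counts (log2-fold change 3.53, SE 0.67, adjusted p = 0.0220) and *GAPDHP1* with 7 and 3 control and 119, 63, and 47 knockout counts (log2-fold change 2.91, SE 0.57, adjusted p = 0.0234) passed the call rule. Without the sgMTSS1_1 pool both missed it (adjusted p = 0.0922 and 0.0915), and *GAPDHP1* also missed it without control pool 2, without the sgMTSS1_2 pool, and with limma-voom. Without control pool 1 the log2-fold change was 5.67 for *GAPDHP40* and 3.69 for *GAPDHP1*, and without control pool 2 it was 2.71 and 2.44. The 4 pseudogenes of *PKM* in the table summed to 35 and 19.1 CPM in the control pools. In the knockout pools the sum was 4.28, 7.76, and 3.83 CPM, every knockout value below both control values. Among them *PKMP2*, with 105 and 53 control and 17, 38, and 17 knockout counts, was called lower. Its log2-fold change was -2.61 (SE 0.53, adjusted p = 0.0257) in the edgeR quasi-likelihood test. Of the fits without 1 knockout pool, it missed the call rule without the sgMTSS1_1 (adjusted p = 0.105) or sgMTSS1_3 pool (0.0906). The *PKMP2* log2-fold change was -1.99 without control pool 1 and -3.02 without control pool 2. For *PGAM1*, 2 of 13 annotated pseudogenes were in the table and 0 were tested. Their sum was 4.38 and 1.49 CPM in the control pools and 1.43, 1.62, and 0.870 CPM in the knockout pools, with overlapping groups. Whether reads on these rows came from the pseudogene or from the parent gene cannot be told apart from the counts.

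**Figure D3:**
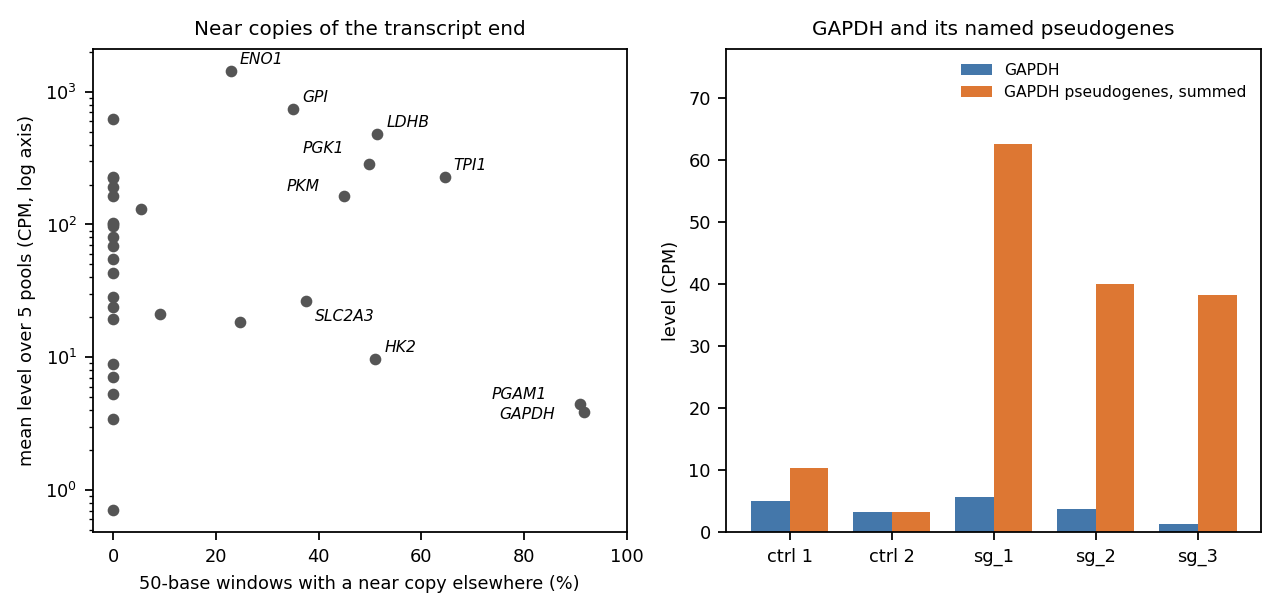
Left, share of 50-base windows of each member's transcript end with a near copy elsewhere in the genome against its mean level over the 5 pools (CPM, log axis). Right, levels of *GAPDH* and of its summed pseudogenes in each pool: *GAPDH* stays between 1.39 and 5.71 CPM, while the pseudogenes reach 62.6 CPM in the sgMTSS1_1 pool.

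Lactate is formed from pyruvate by lactate dehydrogenase, whose subunits A and B are encoded by *LDHA* and *LDHB*, and crosses the membrane through monocarboxylate carriers. *LDHB* was the major subunit, at 564 and 355 CPM in the control and 565, 465, and 467 CPM in the knockout pools, and its groups overlapped (log2-fold change 0.12, SE 0.33, adjusted p = 0.868). *LDHA* was at 118 and 82.2 CPM in the control and 205, 121, and 128 CPM in the knockout pools. The sgMTSS1_1 pool stood out above the others and the sgMTSS1_2 pool was only just above control pool 1, so that the groups did not overlap but the log2-fold change was 0.60 (SE 0.35, adjusted p = 0.334). The *LDHB* share of the counts of both genes was 82.8% and 81.2% in the control pools against 73.3%, 79.4%, and 78.5% in the knockout pools. This share leaves out 2 *LDHB* pseudogenes of the table, both tested and neither called. Their sum was 28.8 and 139 CPM in the control pools and 69.9, 58.3, and 41.6 CPM in the knockout pools. Whether their reads came from *LDHB* was not tested.

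*SLC16A1*, encoding the carrier MCT1, was at 213 and 178 CPM in the control and 287, 220.1, and 237 CPM in the knockout pools, all above both control pools by a small margin (log2-fold change 0.35, SE 0.30, adjusted p = 0.528). *SLC16A3*, encoding MCT4, the carrier typical of cells that export lactate, was at 144 and 278 CPM in the control and 98.1, 136, and 159.5 CPM in the knockout pools. Control pool 2 was the highest and the groups overlapped, at a log2-fold change of -0.69 (SE 0.36, adjusted p = 0.288). That value was -1.07 without control pool 1 and -0.11 without control pool 2. The *SLC16A3* share of the counts of both carriers was 40.4% and 61% in the control pools against 25.4%, 38.1%, and 40.2% in the knockout pools, with the sgMTSS1_3 pool almost level with control pool 1.

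Pyruvate enters mitochondria through a carrier made of MPC1 and MPC2. *MPC1* was at 113 and 179 CPM in the control pools and 98.2, 52.2, and 61.2 CPM in the knockout pools. All knockout values were below both control values, the lowest 2 in the sgMTSS1_2 and sgMTSS1_3 pools, with a log2-fold change of -1.05 (SE 0.36, adjusted p = 0.118) in the edgeR quasi-likelihood test after Benjamini-Hochberg adjustment. Under the alternatives the adjusted p of *MPC1* ranged from 0.0326, with offsets for GC content and length (0.0790 with the block added), to 0.356, and its log2-fold change was -0.65 without control pool 2. *MPC2* was at 25.6 and 11.6 CPM in the control and 38.7, 22, and 21.2 CPM in the knockout pools, with overlapping groups (log2-fold change 0.56, SE 0.44, adjusted p = 0.483). The *MPC2* share of the counts of both subunits was 18.5% and 6.09% in the control pools against 28.2%, 29.7%, and 25.7% in the knockout pools, the knockout pools lying close together and all above the control pools.

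The pyruvate dehydrogenase complex converts pyruvate to acetyl-CoA, and its E1 alpha subunit, which the kinases phosphorylate, had the largest log2-fold change in the complex. *PDHA1* was at 103 and 168 CPM in the control pools and 317, 257, and 267 CPM in the knockout pools. The groups did not overlap, the level was 2.07-fold higher, and the log2-fold change was 1.05 (SE 0.33, adjusted p = 0.0980) in the edgeR quasi-likelihood test after Benjamini-Hochberg adjustment. Over all alternatives its adjusted p ranged from 0.0389 to 0.247, under 0.05 with DESeq2 (0.0465) and without control pool 2 (0.0389). *PDHB*, the E1 beta subunit, was at 32.5 and 33.7 CPM in the control and 69.4, 39.2, and 39.1 CPM in the knockout pools. The sgMTSS1_1 pool alone was far above the control pools (log2-fold change 0.57, SE 0.35, adjusted p = 0.365). *DLAT*, the E2 subunit, was at 81 and 37 CPM in the control and 77.4, 78.5, and 69.9 CPM in the knockout pools, with control pool 2 low and control pool 1 above every knockout pool (log2-fold change 0.35, SE 0.36, adjusted p = 0.603). *DLD*, the E3 subunit that other dehydrogenase complexes share, was at 95.4 and 106 CPM in the control and 132, 89.7, and 94 CPM in the knockout pools and its groups overlapped (log2-fold change 0.062, SE 0.30, adjusted p = 0.926).

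Of the kinases that switch the complex off, *PDK2* was low in every pool. It had 8 and 6 counts in the control and 68, 38, and 37 counts in the knockout libraries, or 2.50 and 1.79 CPM and 8.82, 6.86, and 6.44 CPM. All knockout values were above both control values, 3.43-fold on average, with a log2-fold change of 1.78 (SE 0.49, adjusted p = 0.0673) in the edgeR quasi-likelihood test after Benjamini-Hochberg adjustment. Its adjusted p ranged from 0.0375, with no filter on low counts, to 0.168. *PDK3*, the most abundant kinase, was at 31 and 32.5 CPM in the control and 23.9, 26.2, and 28.5 CPM in the knockout pools, all slightly below both control pools (log2-fold change -0.28, SE 0.29, adjusted p = 0.613). *PDK1* was at 20 and 12.2 CPM in the control and 17.9, 19.9, and 22.3 CPM in the knockout pools, with overlapping groups (log2-fold change 0.31, SE 0.35, adjusted p = 0.640).

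Among the kinases the *PDK2* share was 4.68% and 3.85% in the control pools against 17.4%, 13%, and 11.2% in the knockout pools. The Wilson intervals of *PDK2* were 2.39 to 8.96% and 1.77 to 8.14% in the control pools, against 14 to 21.5%, 9.60 to 17.3%, and 8.27 to 15.1% in the knockout pools, those of the sgMTSS1_3 pool and of control pool 1 overlapping. The *PDK3* share was 57.9% and 69.9% in the control pools against 47.2%, 49.5%, and 49.8% in the knockout pools, and the *PDK1* share overlapped, at 37.4% and 26.3% and 35.4%, 37.5%, and 38.9%.

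Altogether 15 shares in 9 sets of isozymes or paralogs were compared between the groups by a two-sided exact permutation test over the 5 libraries, which cannot give a p below 0.1 with 2 against 3. The test gave this smallest p of 0.1 (0.21 after Benjamini-Hochberg adjustment over the 15 shares) for 7 shares: *PFKP*, *SLC16A3*, *PFKFB2*, *PFKFB3*, *PDK2*, *PDK3*, and *MPC2*. For *PFKM*, whose share lay above both control pools in all knockout pools, the exact permutation p was 0.2, and *HK2*, *LDHB*, and *PDK1* also had 0.2. The other 4 shares, of *ENO2*, *SLC2A3*, *PFKL*, and *PFKFB4*, had values of 0.3, 0.4, 0.6, and 0.8 in the exact permutation test. The 95% Wilson intervals of single shares were between 0.241 and 20.4 percentage points wide, narrowest for enolase and widest for *PFKFB2* and *PFKFB3*. No share therefore differed at the 0.05 level, and none could have.

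**Figure D4:**
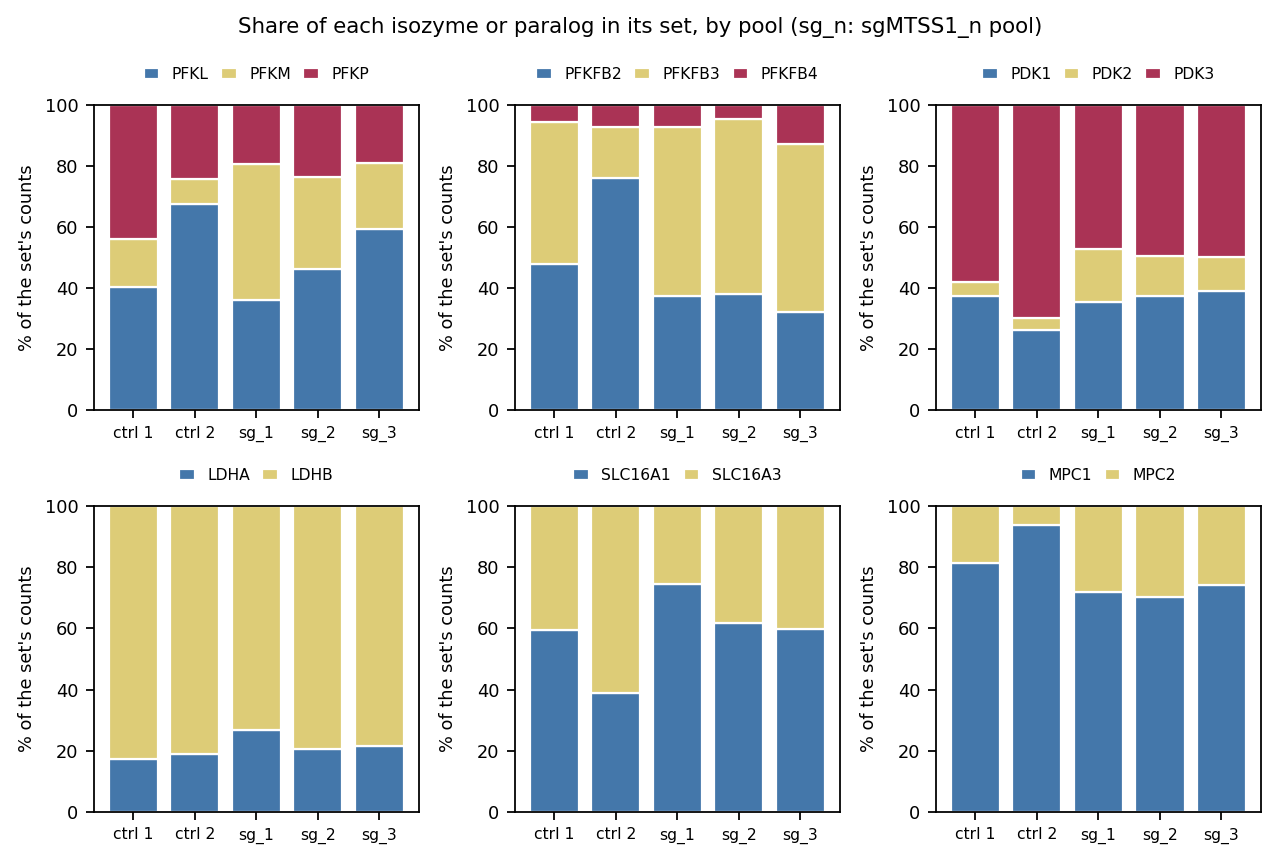
Share of each isozyme or paralog in the summed counts of its set, in percent, for each of the 5 pools as stacked bars. The *PFKM* share is largest in the sgMTSS1_1 pool at 44.4%, and the *PDK2* and *PFKFB3* shares are larger in every knockout pool than in either control pool.

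Some members share their 3′ end with a neighbouring gene of the table, and the use of strand in counting is not given in the sources used here. Within the last 1000 bases this held on the opposite strand for *TPI1* and *SPSB2*, *SLC16A3* and *CSNK1D*, *PDHA1* and *MAP3K15*, *DLAT* and *PIH1D2*, *DLD* and *LAMB1*, and *PDK2* and *SAMD14*. On the same strand it held for *LDHB* with an unnamed gene and for *ALDOC* with *RSKR*. For these members reads of the neighbour could be included.

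Genes of neighbouring pathways were examined by lists. The background for each is that 4.17% of all tested genes were called higher and 1.01% lower. At an unadjusted p under 0.05, 14.1% of all tested genes were higher and 9.23% lower. Of 39 other genes of glycolysis and pyruvate use, 28 were in the table and 23 were tested. The median log2-fold change of this list was -0.19, and 1 gene was called higher and 0 lower in edgeR's quasi-likelihood test. At an unadjusted p under 0.05 there were 3 higher and 0 lower, or 13.0% of the list, beside 23.3% of all tested genes. The called gene was *GPD1L*, encoding a glycerol 3-phosphate dehydrogenase-like enzyme, at 6.57 and 2.38 CPM in the control and 20, 17, and 18.1 CPM in the knockout pools (log2-fold change 2.04, SE 0.47, adjusted p = 0.0387). All knockout values of *GPD1L* exceeded both control values, and it missed the threshold without control pool 2 (adjusted p = 0.0720) and without the sgMTSS1_1 (0.122), sgMTSS1_2 (0.0740), or sgMTSS1_3 pool (0.0924). Its log2-fold change was 2.95 without control pool 1 and 1.51 without control pool 2. Of the genes with a negative change, the lowest p belonged to *SLC16A7*, encoding the carrier MCT2, at 14.1 and 6.85 CPM in the control and 5.58, 5.96, and 5.39 CPM in the knockout pools (log2-fold change -0.89, SE 0.42, adjusted p = 0.247).

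The pentose phosphate pathway branches off at glucose 6-phosphate and supplies NADPH and ribose. All 11 of its listed genes were tested, with a median log2-fold change of -0.27, and 1 was called higher and 0 lower. At an unadjusted p under 0.05 there were 1 higher and 2 lower, or 27.3% of the list, beside 23.3% of all tested genes. *TALDO1*, encoding transaldolase, which returns pentose carbon to glycolysis, rose from 47.5 and 20.9 CPM in the control pools to 213, 140.5, and 167 CPM in the knockout pools. This was a 5.08-fold rise with no overlap and a log2-fold change of 2.34 (SE 0.42, adjusted p = 0.0186) in the edgeR quasi-likelihood test after Benjamini-Hochberg adjustment, which was lost only without the sgMTSS1_1 pool (2.16, adjusted p = 0.0746). The log2-fold change of *TALDO1* was 3.07 without control pool 1 and 1.90 without control pool 2. *PGLS*, encoding 6-phosphogluconolactonase, was at 52.5 and 56 CPM in the control and 25.2, 32, and 29.4 CPM in the knockout pools, all knockout values below both control values (log2-fold change -0.91, SE 0.28, adjusted p = 0.0946).

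Many glycolytic genes are known targets of hypoxia-inducible factors, and 18 of 24 listed hypoxia factor genes and other targets were tested. Their median log2-fold change was -0.17, and 1 was called higher and 0 lower. At an unadjusted p under 0.05 there were 2 higher and 1 lower, or 16.7% of the list, beside 23.3% of all tested genes. *NDRG1*, a gene induced by hypoxia and stress, rose from 6.25 and 3.58 CPM in the control to 25.3, 25.3, and 38.3 CPM in the knockout pools (log2-fold change 2.59, SE 0.43, adjusted p = 0.0142), and it missed the threshold without the sgMTSS1_1 pool (adjusted p = 0.0591). Its log2-fold change was 3.05 without control pool 1 and 2.27 without control pool 2. *NDRG1* lies on chromosome 8 (133237175 to 133302022), as does the targeted *MTSS1* (124550784 to 124728473). Any part of this position in its level was not tested. *HIF1A*, encoding the factor's oxygen-regulated subunit, was at 65.3 and 48.9 CPM in the control and 29.8, 28.9, and 25.1 CPM in the knockout pools. All knockout values of *HIF1A* were below both control values, with a log2-fold change of -1.03 (SE 0.29, adjusted p = 0.0732), and the adjusted p was under 0.05 with DESeq2 (0.0363) and with offsets for GC content and length (0.0394, but 0.157 with the block added).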

How the data were processed

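The data were RNA-seq counts of 5 TF-1 libraries, 2 control and 3 *MTSS1* knockout pools, grouped by their sample labels. The authors prepared QuantSeq 3′ libraries, aligned single-end reads to GRCh38, removed reads without a unique alignment, and deposited raw whole-number counts for Ensembl gene IDs, without normalization. The submitters' processing notes name HISAT2 2.1.0, SAMtools 1.10, FastQC 0.11.9, and DESeq2. The counting program, annotation release, strand, and duplicate treatment are not given in the sources used here. The authors left out sgCtrl pool 3 and the sgMTSS1_4 pool after an outlier test, and these were not analysed here.

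Genes were kept by filterByExpr (minimum count 10; 14391 of 27328), scaled by TMM, and tested with edgeR 4.0.16 in R 4.3.3 with condition alone in the model. A gene was called at a Benjamini-Hochberg adjusted p under 0.05 over all tested genes and a log2-fold change beyond 1. Standard errors came from the quasi-likelihood F statistic. Pool medians used a pseudocount of 0.5 CPM. Symbols (27211 genes) and positions came from GENCODE 44, promoters from RefSeq (31 of 34 members matched), and near copies from BLAST 2.17.0. Alternatives used DESeq2 1.42.0, limma 3.58.1, and mgcv 1.9.3, and scripts were tested on simulated data. All members and *MTSS1* are named, and of each further list the called genes or the lowest p in each direction. Members and lists were chosen with earlier results of these data known.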

Additional observations from a re-analysis of the deposited data

How the results depend on the processing

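The call rule leaves out every difference under 2-fold, and *ALDOC*, *PFKFB4*, *PGAM1*, *GAPDH*, and *PDK2* rested on few counts. Of all tested genes, 1173 were called higher with no filter on low counts and 1019 with DESeq2, and 232 were called lower with library size alone, 338 with DESeq2, and 381 with offsets for GC content and length. Leaving out 1 pool gave 107 to 917 higher and 4 to 432 lower, fewest without the sgMTSS1_1 pool. Members called higher numbered 4 with no filter (*SLC2A3*, *PFKFB3*, *PGAM1*, and *PDK2*), 1 with a filter at a mean of 5 CPM (*PFKFB3*), 3 with DESeq2, 1 with the replicate block (*PFKFB3*), and 0 to 2 without 1 pool. Members called lower numbered 1 with DESeq2 (*PFKP*), 2 with GC content and length offsets (*PFKP* and *MPC1*, both lost when the block was added), and 0 to 1 without 1 pool. The members' median was 0.17 with library size alone, 0.49 with no filter, and 0.12 without control pool 2 to 0.70 without control pool 1. The cause was not tested for any of these, nor for the reversals below.

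Of 32 members, 21 kept their sign under every alternative that tested them and 11 did not, *PFKFB4*, *PGAM1*, and *GAPDH* not being tested with the filter at a mean of 5 CPM. Log2-fold changes reversed with library size alone for *BPGM* (-0.057), *DLD* (-0.087), *HK1* (-0.10), and *LDHB* (-0.048), and with GC content and length offsets for *BPGM* (-0.10), *DLD* (-0.0028), *ENO1* (-0.034), *HK1* (-0.099), and *LDHB* (-0.15). They also reversed with thinned counts for *DLD* (-0.023), and for *ENO2* with no filter (0.12) and with the mean filter (0.0046). *HK1* reversed with RLE factors (-0.0029), DESeq2 (-0.0029), and limma-voom (-0.018). Leaving out 1 pool gave -0.32 to 0.83 for *BPGM*, -0.077 to 1.04 for *DLAT*, -0.14 to 0.20 for *DLD*, -0.16 to 0.85 for *ENO1*, -0.31 to 0.38 for *ENO2*, -0.68 to 0.25 for *GAPDH*, -0.19 to 0.17 for *HK1*, -0.15 to 0.50 for *LDHB*, -0.61 to 0.51 for *PFKFB2*, -1.13 to 0.046 for *PFKL*, -0.055 to 1.12 for *SLC2A1*, and -1.04 to 0.16 for *MTSS1*. Differences in share, knockout minus control in percentage points, ranged from -20.1 to 6.78 for *PFKL*, from -2.31 to 19.4 for *SLC2A3*, from -0.395 to 3.65 for *PFKFB4*, and from -0.149 to 11 for *PDK1*.

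Pools with number 1 or 2 in both groups share only a number. The difference between control pools 1 and 2 correlated across genes at 0.17 with that between the same-numbered knockout pools. With the replicate block 894 genes were called higher and 200 lower, *GAPDH* reversed to 0.20 and *HK1* to -0.23, and with GC content and length offsets added to the block *HK1* was -0.29 and *LDHB* -0.14.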
